A study of Mus musculus with 486 samples.

Results

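Rag1, Rag2 and Dntt are 3 of the 47 genes assayed by RT-qPCR in single lymphoid progenitors of mouse bone marrow, and they were found by symbol among the assay rows, with TDT as the file's older name for Dntt. The cells came from wild-type C57/Bl6 mice. Common lymphoid progenitors (CLP), which can still enter several lymphoid lineages, had been sorted as Ly6d-Gfra2-, Ly6d+Gfra2- and Ly6d+Gfra2+ cells. Cells of FrA, an early compartment of the B lineage, had been sorted as Gfra2- Bst1-, Gfra2+ Bst1- and Gfra2+ Bst1+ cells. Ly6d is a surface protein of lymphoid progenitors, Gfra2 a receptor for GDNF-family ligands and Bst1 a surface ADP-ribosyl cyclase. The labels name no animal, age or sex, so each sorted subtype is 1 sample, no p-value was computed between subtypes, and all intervals are 95% intervals for counting error only. The 463 cells kept were 87, 86 and 82 CLP and 83, 83 and 42 FrA in the order above.

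Rag1 and Rag2 form the recombinase that cuts DNA beside the V, D and J segments of antigen receptor genes. Dntt is terminal deoxynucleotidyl transferase, which adds bases without a template where the cut segments are joined. In the bone marrow all 3 are known to be expressed before the immunoglobulin heavy chain is assembled, and the E proteins, Ebf1, Foxo1 and Pax5 are among the transcription factors of that stage. Rag1 and Rag2 lie side by side on chromosome 2, with 0 protein-coding genes between them in the annotation used, and Dntt lies on chromosome 19.

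Because several of those transcription factors were assayed in the same cells, the 250 bases before each gene's annotated start are shown, from RefSeq's GRCm38.p6 annotation and 5′ to 3′ in the direction of the gene. Capitals mark matches to 4 short motifs searched on both strands: CANNTG (the E-box, read by E proteins), CCCNNGGG (the core of the palindrome read by Ebf1), GTAAACA (a forkhead site) and TGGGAA (an Ikaros site). No matches overlapped one another. The regions are chr2:101649533-101649782 on the minus strand for Rag1, chr2:101624462-101624711 on the plus strand for Rag2 and chr19:41029025-41029274 on the plus strand for Dntt.
Rag1: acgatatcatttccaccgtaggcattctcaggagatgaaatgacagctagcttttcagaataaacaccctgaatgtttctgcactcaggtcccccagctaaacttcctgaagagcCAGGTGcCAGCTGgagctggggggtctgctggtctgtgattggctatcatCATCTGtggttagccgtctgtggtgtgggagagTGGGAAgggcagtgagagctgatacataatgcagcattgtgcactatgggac
Rag2: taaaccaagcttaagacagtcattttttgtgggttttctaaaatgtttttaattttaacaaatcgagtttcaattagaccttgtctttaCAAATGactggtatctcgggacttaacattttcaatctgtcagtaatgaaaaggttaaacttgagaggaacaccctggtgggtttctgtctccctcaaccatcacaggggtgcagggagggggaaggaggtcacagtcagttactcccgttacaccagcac
Dntt: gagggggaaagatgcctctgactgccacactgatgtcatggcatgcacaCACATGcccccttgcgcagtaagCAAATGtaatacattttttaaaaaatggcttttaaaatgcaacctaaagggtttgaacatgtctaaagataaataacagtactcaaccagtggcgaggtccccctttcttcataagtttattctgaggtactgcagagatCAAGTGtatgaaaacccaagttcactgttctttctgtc

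The Rag1 window held 3 E-boxes, 135 to 130, 128 to 123 and 85 to 80 bases before the start, and 1 Ikaros match. The Rag2 window held 1 E-box and the Dntt window 3. Among the 32851 windows of the same length in the table, 66.2% held at least 1 E-box and 12.2% at least 3, while 21.6% held an Ikaros match. The Ebf1 core was in 11.8% of windows and the forkhead letters in 3.17%, and neither was in any of the 3 windows. Such matches describe letters only and say nothing about binding.

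The readout was the cycle threshold (Ct), the amplification cycle at which an assay's signal is called. An early (low) Ct stands for much template, and each cycle for a factor of 2 if amplification is fully efficient. A gene counted as detected in a cell at a Ct of at most 28, and 40 stands for no Ct. No single-cell value of the 3 genes lay between 28 and 40, and the highest recorded were 17.37 for Rag1, 25.90 for Rag2 and 27.83 for Dntt. The cells lay on 11 plates with 40 to 45 kept cells each, 2 plates per subtype except for the single plate of Gfra2+ Bst1+ FrA. No plate held cells of more than 1 subtype, so plate and subtype cannot be told apart in any comparison between subtypes. Input was followed by averaging the 3 reference Ct values of a cell, where early means much RNA, and this mean ranged from 11.22 in Ly6d-Gfra2- CLP to 12.62 in Gfra2- Bst1- FrA. Of the sort genes, Gfra2 was detected in 90.5% to 93.9% of the cells of the Gfra2+ subtypes and 2.30% to 13.3% of the others, and Bst1 in 88.1% of Gfra2+ Bst1+ FrA, 34.9% of Gfra2+ Bst1- FrA, 23.2% of Ly6d+Gfra2+ CLP and 0% to 6.02% of the rest. Ly6d was not analysed here. Of 6 B-cell progenitor markers, 5 were assayed, and the mean number detected per cell ran from 0.356 in Ly6d-Gfra2- CLP to 4.00 in Gfra2+ Bst1+ FrA. Of 6 T-cell and Notch markers, 4 were assayed, with 1.40 to 1.83 detected per cell and Bcl11b, which defines committed T cells, in 0 cells of every subtype. Of 5 granulocyte and monocyte markers, 3 were assayed, with 0.916 (Gfra2- Bst1- FrA) to 1.92 (Ly6d-Gfra2- CLP) detected per cell, and of 5 natural killer and innate lymphoid markers 4, with 1.11 to 1.45.

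Over all 463 cells, Dntt was detected in 442, Rag2 in 374 and Rag1 in 213. Rag1 had the widest range of subtype shares of the 3 genes and Dntt the narrowest.

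Rag1, the catalytic subunit of the recombinase, was detected in a minority of the cells of each Gfra2- subtype and in most cells of each Gfra2+ subtype. It was detected in 7 of 87 Ly6d-Gfra2- CLP, or 8.05% (3.30% to 15.9%), with 11.9% on one plate and 4.44% on the other. In Ly6d+Gfra2- CLP it was detected in 29 of 86 cells, or 33.7% (23.9% to 44.7%), with 42.9% and 25% by plate. In Ly6d+Gfra2+ CLP it was detected in 63 of 82 cells, or 76.8% (66.2% to 85.4%), with 75% and 78.6% by plate. Those 3 CLP subtypes did not overlap by plate. Among FrA, the Gfra2- Bst1- subtype held Rag1 in 16 of 83 cells, or 19.3% (11.4% to 29.4%), with 14.6% and 23.8% by plate. For Gfra2+ Bst1- cells the share was 80.7% (70.6% to 88.6%), with 85.7% and 75.6% by plate. Gfra2+ Bst1+ cells, on their single plate, reached 73.8% (58% to 86.1%). In order of share, the 3 Gfra2+ subtypes could not be ranked, since neighbours differed by 3.02 points (-11.9 to 19.8) and 3.89 points (-8.61 to 16.3).

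Rag2, the partner subunit, was detected in most cells of every subtype, those with little Rag1 included. In Ly6d-Gfra2- CLP it was detected in 62 of 87 cells, or 71.3% (60.6% to 80.5%), but 54.8% on plate 5 and 86.7% on plate 9. The mean reference Ct of those plates was 11.69 and 10.78 cycles, so the plate with more Rag2 also had more RNA input by this measure, and the part of input was not tested. The gap of 31.9 points in Rag2 is one of only 7 of at least 20 points among 225 pairs of plates of the same subtype over all assays, whose median gap was 2.38 points. In Ly6d+Gfra2- CLP the share was 79.1% (69% to 87.1%), with 69% and 88.6% by plate. It was 97.6% (91.5% to 99.7%) in Ly6d+Gfra2+ CLP, with 95% and 100% by plate. Among FrA, the Gfra2- Bst1- subtype reached 57.8% for Rag2 (46.5% to 68.6%). The Gfra2+ Bst1- subtype stood at 92.8% (84.9% to 97.3%), level with the Gfra2+ Bst1+ subtype at 92.9% (80.5% to 98.5%). The FrA plates of 1 subtype lay within 4.65 points of each other. The Gfra2- Bst1- FrA were thus the lowest subtype for Rag2, although their interval overlapped that of the next lowest, Ly6d-Gfra2- CLP.

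Dntt was detected in all 87 Ly6d-Gfra2- CLP and all 82 Ly6d+Gfra2+ CLP, with exact intervals that reach down to 95.8% and 95.6%. It was detected in 97.7% of Ly6d+Gfra2- CLP, 97.6% of Gfra2+ Bst1- FrA and 92.9% of Gfra2+ Bst1+ FrA. The lowest share was again that of Gfra2- Bst1- FrA, at 83.1% (73.3% to 90.5%), with 85.4% and 81% by plate. Neither plate of that subtype overlapped a plate of any other.

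**Figure D1:**
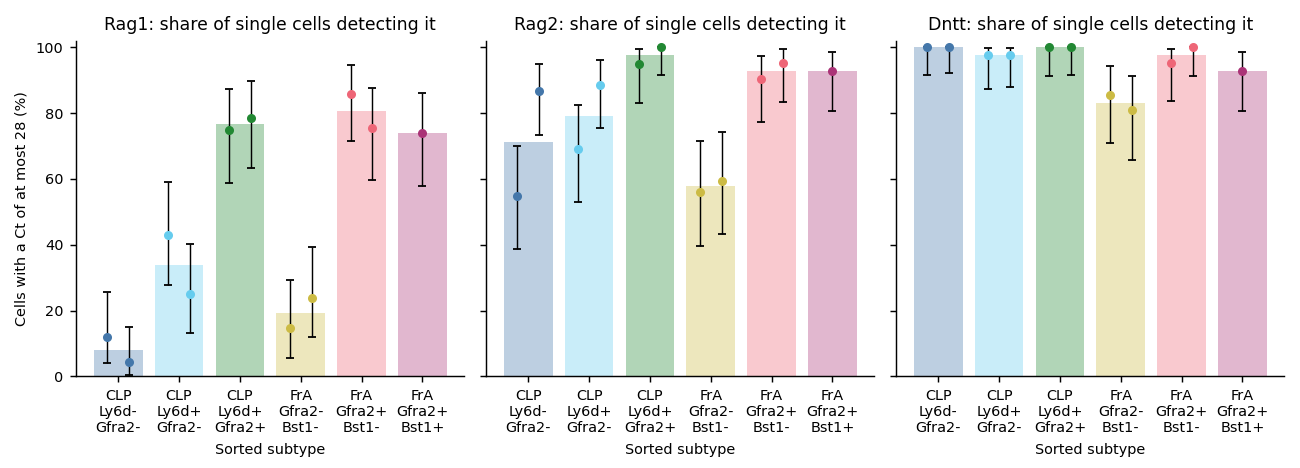
Share of single cells detecting Rag1, Rag2 and Dntt (y axis, percent of cells with a Ct of at most 28) in the 6 sorted subtypes (x axis); bars are subtype shares, points are plates and error bars are exact 95% intervals of each plate. Rag1 ran from 8.05% to 80.7% of cells, Rag2 from 57.8% to 97.6% and Dntt from 83.1% to 100%, and the 2 plates of Ly6d-Gfra2- CLP stood 31.9 points apart for Rag2.

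A difference in share was called when it reached 20 points and the plates of the groups did not overlap, and a difference in mean Ct of detecting cells when it reached 1 cycle under the same rule, for genes that at least 50% of the cells on either side detected. The first comparison asked what separates Ly6d+ from Ly6d- cells among Gfra2- CLP. Rag1 was higher in Ly6d+ cells by 25.7 points (13.8 to 36.9), the only one of the 3 genes called; leaving out plate 6 reduced the difference to 17.0 points and ended the call. Rag2 differed by 7.81 points (-5.09 to 20.4) and Dntt by -2.33 points (-8.09 to 2.23). The Rag2 difference depended on 1 plate of the Ly6d- cells, at -7.60 points without plate 5 and 24.3 points without plate 9, where it met the rule. Over all 45 assays that could be called, the rule called 8.89% by share, and 9.09% of 22 by Ct. Neither Rag2, at 16.17 cycles in both subtypes, nor Dntt, at 17.75 and 18.29 cycles, was called by Ct; without plate 5 the Dntt difference was -1.43 cycles and met the rule. The reference Ct was later in the Ly6d+ cells, at 12.24 against 11.22 cycles. After its subtraction Rag2 was earlier in Ly6d+ cells by 1.03 cycles, which met the rule, and the Dntt difference turned from -0.54 to 0.48 cycles, which did not.

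The next step, from Gfra2- to Gfra2+ among Ly6d+ CLP, shares its Gfra2- cells with the first. Rag1 was higher in Gfra2+ cells by 43.1 points (28.5 to 55.1) and was called, where 15.6% of all assays were called by share and 13% by Ct. Rag2 was higher by 18.5 points (9.06 to 28.4), with plates that did not overlap, which fell short of 20 points. It was 8.92 points without plate 6, and met the rule without plate 7, at 28.5 points, and without plate 1, at 20.9 points. Dntt was at 100% and 97.7%. The Gfra2+ cells held more template of Rag2 by 0.72 cycles and of Dntt by 0.69 cycles, neither of which met the rule. Of 11 assayed regulators among a list of 16 linked to the recombinase genes, 4 were called higher by share in the same comparison, namely Ebf1, Foxo1, Pax5 and Nfil3, and 0 lower, whereas the Ly6d step called Ebf1 higher and Nfil3 lower. The median difference over the 11 was 2.21 points, against 0.06 points over all assays.

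For Rag1 and Rag2, the widest of the 6 differences in share was the Gfra2 step among Bst1- FrA. Rag1 was higher in Gfra2+ cells by 61.4 points (47.6 to 71.4) and Rag2 by 34.9 points (22.3 to 46.4), and both were called, where 24.4% of all assays were called by share and 36.4% by Ct. Dntt was higher by 14.5 points (5.61 to 24.1), short of the rule. By Ct, detecting Gfra2+ cells held more Rag2, at 15.73 ± 1.66 cycles (SD, 77 cells) against 17.55 ± 1.33 (48 cells), and more Dntt, at 18.55 ± 2.45 (81 cells) against 20.40 ± 2.54 (69 cells). Those differences of 1.82 and 1.85 cycles were called, but fell to 0.96 and 0.97 cycles and lost the call once each cell's mean reference Ct was subtracted. The reference Ct itself was 12.62 cycles in the Gfra2- and 11.75 in the Gfra2+ cells, and over all 22 assays compared by Ct the median difference was 0.81 cycles in the same direction. Of the 11 regulators, 2 were called higher by share, Ebf1 and Pax5, and 0 lower, beside the 24.4% of all assays called. The median difference over the 11 was 0 points, below the median over all assays, unlike in the CLP Gfra2 step.

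Between Bst1+ and Bst1- cells of the Gfra2+ FrA, none of the 3 genes was called by share, where 6.67% of all assays were. Rag1 differed by -6.91 points (-23.4 to 7.71), Rag2 by 0.086 points (-12.4 to 9.06) and Dntt by -4.73 points (-16.7 to 2.84). Dntt alone was called by Ct, where 19.2% of 26 assays were: the difference was -1.24 cycles, with a later Ct in the Bst1+ cells, at 19.79 ± 1.96 (39 cells). That call was lost in the cells with the middle 50% of reference Ct, at -0.21 cycles (negative where the Bst1+ cells were later), and without plate 3, at -0.72 cycles, and the direction turned to 0.43 cycles earlier after subtraction of the spike-in Ct. Rag2 ran the other way, with an earlier Ct in Bst1+ cells by 0.81 cycles that met the rule without plate 4, at 1.06 cycles. After subtraction of the spike-in Ct, Rag2 was earlier by 2.46 cycles and Rag1 turned from -0.33 to 1.36 cycles, and both met the rule. The spike-in Ct averaged 8.35 cycles on the Bst1+ plate and 6.76 and 6.64 on the Bst1- plates. Its subtraction thus moved all 3 genes in the same direction.

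Across compartments, Gfra2+ Bst1- FrA and Ly6d+Gfra2+ CLP differed for Rag1 by 3.89 points (-8.61 to 16.3), for Rag2 by -4.79 points (-12.6 to 2.37) and for Dntt by -2.41 points (-8.37 to 2.39). None was called by share, where 6.67% of assays were, and none by Ct, where 8% were, although the Dntt difference was -0.95 cycles, later in FrA, and met the rule without plate 3, where the difference was -1.47 cycles. After subtraction of the spike-in Ct, Rag1 turned from 0.08 to -1.67 cycles and Dntt was at -2.66 cycles, and both met the rule. Rag2 moved in the same direction, from -0.27 to -2.04 cycles, and was not called. The spike-in Ct averaged 6.63 and 10.1 cycles on the 2 plates of these CLP and 6.76 and 6.64 on those of these FrA. The subtraction thus moved all 3 genes the same way, and the shift rests on 1 CLP plate. Missing the rule does not show that the subtypes are alike. The Gfra2- Bst1- FrA, in contrast, stood below the Ly6d+Gfra2- CLP for all 3 genes. Of the 11 regulators, Id3 was called higher by share in these FrA and Id2 lower, Pax5 higher in Gfra2+ FrA against CLP, and none by share in the Bst1 step, where 1 was called higher and 1 lower by Ct. Rag2 was lower by share, by -21.2 points (-34.2 to -7.24), and was called, where 11.1% of assays were. The difference was -11.2 points without plate 7 and -19.5 points without plate 2, and the call was lost in either case. Rag1 differed by -14.4 points (-27.1 to -1.09) and met the rule without plate 7, at -23.6 points, while it was -5.72 points without plate 6 and -9.91 points without plate 2. Dntt differed by -14.5 points (-24.2 to -5.82). By Ct, where 13.6% of assays were called, detecting FrA cells were later for Rag2, by a difference of -1.38 cycles, and for Dntt, by -2.12 cycles, and both were called. After subtraction of the reference Ct they were -0.88 cycles, which lost the call, and -1.73 cycles, which kept it.

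In detecting cells, Rag1 had the narrowest range of Ct and Dntt the widest. Rag1 lay between 11.85 and 17.37 cycles in all cells, with subtype means from 14.28 ± 1.18 (SD, 67 cells) in Gfra2+ Bst1- FrA to 15.49 ± 0.43 (7 cells) in Ly6d-Gfra2- CLP. Neighbours in that order were at most 0.58 cycles apart, less than the SD between cells of either neighbour. Rag2 subtype means ran from 14.92 ± 1.07 (39 cells) in Gfra2+ Bst1+ FrA to 17.55 ± 1.33 in Gfra2- Bst1- FrA, and in this order a single gap between neighbours exceeded 1 cycle, that of 1.38 cycles before the last. Dntt subtype means ran from 17.60 ± 1.63 (82 cells) in Ly6d+Gfra2+ CLP to 20.40 ± 2.54 in Gfra2- Bst1- FrA. Levels of different assays are not set against each other here, because the assays' efficiencies are not given.

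**Figure D2:**
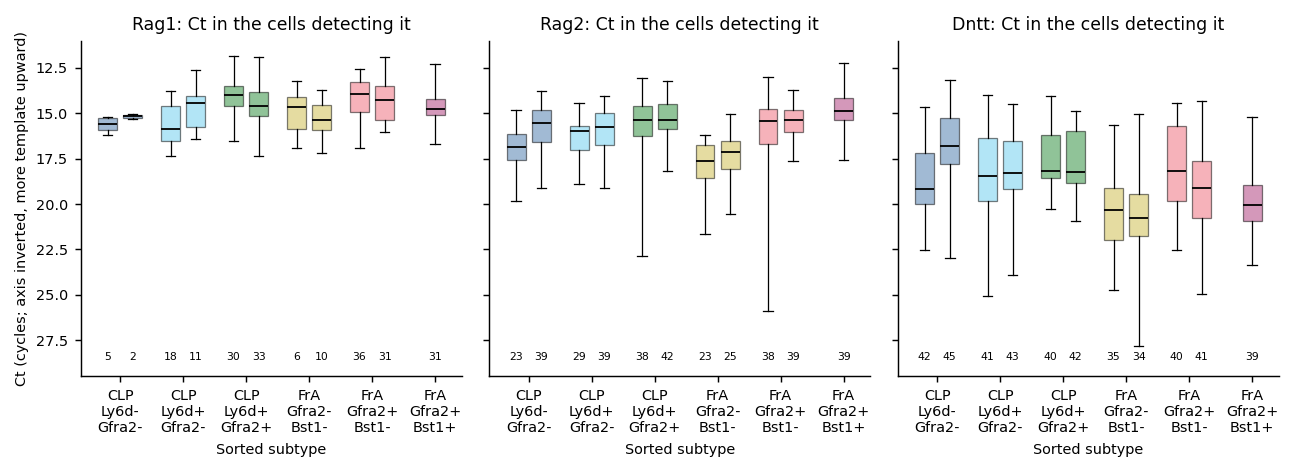
Ct of Rag1, Rag2 and Dntt (y axis in cycles, inverted so that more template lies higher) among the single cells detecting each gene, by sorted subtype (x axis) and plate; boxes span the quartiles with the median as a line, whiskers reach the lowest and highest cell, and the number of detecting cells stands below each box. Rag1 stayed between 11.85 and 17.37 cycles, while Dntt reached 27.83 cycles in Gfra2- Bst1- FrA, whose Rag2 and Dntt boxes sit lowest on the inverted axis.

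The Dntt values were unevenly spread in several subtypes. In Gfra2+ Bst1- FrA, 15 cells had a Ct from 15 to 16, 2 from 16 to 17 and 9 from 17 to 18. In Ly6d+Gfra2+ CLP the same bins held 15, 4 and 13 cells, and the next bin 31. In Gfra2- Bst1- FrA, 9 cells lay from 16 to 17, 0 from 17 to 18 and 4 from 18 to 19. A boundary at 17 cycles, chosen after the values were seen, put 30.5% to 35.7% of the detecting cells of each CLP subtype below it. Among FrA the share was 17.4% for Gfra2- Bst1-, 28.4% for Gfra2+ Bst1- and 10.3% for Gfra2+ Bst1+ cells. The reference Ct of the cells below and above that boundary differed by 0.85 cycles in Ly6d-Gfra2- CLP and by at most 0.42 cycles in the other subtypes. The part of RNA input was not tested. On the 2 plates of Ly6d-Gfra2- CLP the share below 17 cycles was 19.0% and 51.1%, in the same order as their shares of cells with Rag2.

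**Figure D3:**
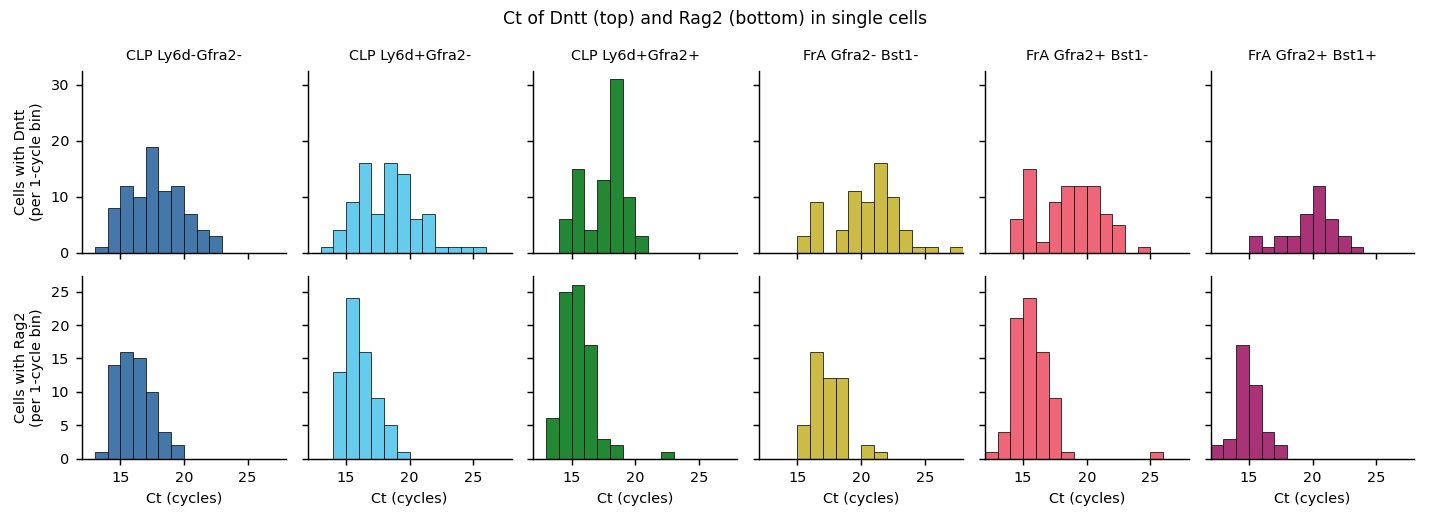
Number of single cells (y axis) per 1-cycle bin of Ct (x axis) for Dntt (top) and Rag2 (bottom) in each sorted subtype. Dntt shows few cells from 16 to 17 cycles in Ly6d+Gfra2+ CLP (4 cells) and Gfra2+ Bst1- FrA (2 cells) and 0 cells from 17 to 18 in Gfra2- Bst1- FrA.

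The 3 genes could be ordered within single cells. Of the 463 cells, 13 held none of them, 64 held Dntt only, 169 held Rag2 and Dntt, and 197 held all 3, so that 443 cells (95.7%, 93.4% to 97.3%) fitted a nested order of Dntt, then Rag2, then Rag1. The other 20 cells were 12 with Rag1 and Dntt, 4 with Rag1 and Rag2 and 4 with Rag2 only, and 0 cells held Rag1 alone. Rag2 without Rag1 was seen in 173 cells and Rag1 without Rag2 in 12. All 3 genes together were found in 6.90% of the Ly6d-Gfra2- cells, while the Ly6d+Gfra2- cells reached 27.9% and the Ly6d+Gfra2+ cells 76.8%. Among FrA they were found in 16.9% of Gfra2- Bst1-, 73.5% of Gfra2+ Bst1- and 69% of Gfra2+ Bst1+ cells. With detection at a Ct of at most 20 the last 2 shares were 49.4% and 26.2%, while Ly6d+Gfra2+ CLP stood at 73.2%. Without plate 8 the share in Gfra2- Bst1- FrA was 9.76%. The labels give no time, so the order describes cells that coexist and not a sequence.

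**Figure D4:**
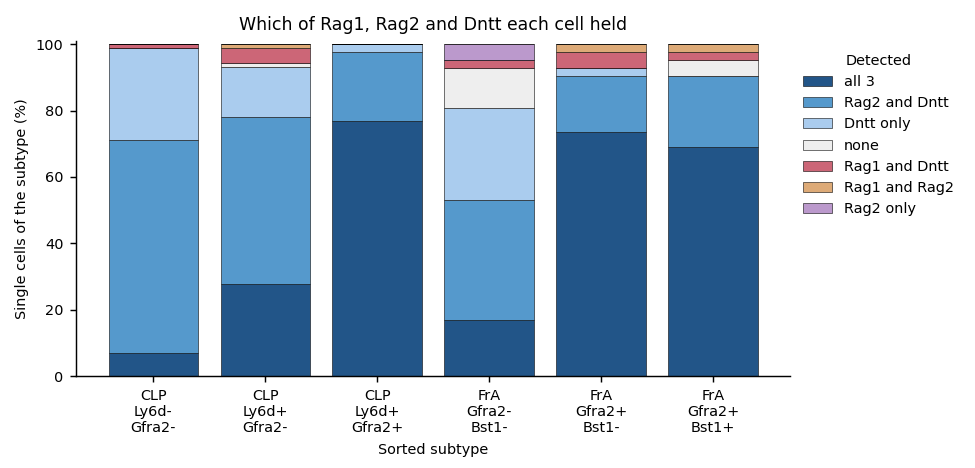
Share of single cells (y axis, percent) of each sorted subtype (x axis) by the combination of Rag1, Rag2 and Dntt detected; blue shades and grey are the combinations of the nested order and the other colours those outside it. The share with all 3 rose from 6.90% to 76.8% across the CLP subtypes, and the cells outside the nested order were 20 of 463.

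Much of that order follows from the shares alone. If the 3 genes had been spread over the cells of a subtype without regard to each other, the product of their shares would put 97.7%, 91.1% and 98.1% of the CLP subtypes and 91.9% and 88.1% of the Gfra2+ FrA subtypes in the nested order. The observed shares were 98.9%, 94.2%, 100%, 92.8% and 95.2%. Gfra2- Bst1- FrA stood furthest from this product, at 92.8% against 82.1%. There, Rag2 was detected in 14 of 16 cells with Rag1 (87.5%) and 34 of 67 without (50.7%). Both were together in 14 cells where the product of shares gives 9.25. These gaps rested mainly on plate 8, where Rag2 was in 10 of 10 cells with Rag1 and 15 of 32 without. On plate 2 Rag2 was in 4 of 6 and 19 of 35. The nested share likewise stood further above its product on plate 8 than on plate 2. In the subtype as a whole, Dntt was detected in 44 of 48 cells with Rag2 (91.7%) and 25 of 35 without (71.4%). Rag2 cells with Rag1 also held more Rag2, at 16.64 ± 0.99 cycles (14 cells) against 17.92 ± 1.28 (34 cells). Their reference Ct was 12.82 against 12.51 cycles, and the part of input was not tested. In the CLP subtypes, in the order above, Rag2 was likewise earlier in cells with Rag1, by 0.59, 0.53 and 0.93 cycles. Their reference Ct was earlier by 0.55, 0.17 and -0.11 cycles. In Gfra2+ FrA the Rag2 difference was -0.02 cycles (Bst1-) and 0.19 cycles (Bst1+). In the other 5 subtypes, Rag2 was detected in 85.7% to 100% of the cells with Rag1 and 70% to 89.5% of those without. Over the 10 plates with at least 3 cells on each side, the Rag2 share was higher in cells with Rag1 on 8, lower on 1 and equal on 1. Among cells with both transcripts, the Ct values of Rag1 and Rag2 went together weakly. Pearson's r over cells ran from 0.14 (25 cells) to 0.42 (14 cells) in the 5 subtypes with enough cells. Cells of a plate are not independent here, and cells of high input share low Ct values.

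The B-lineage regulators on the panel divided the cells by Rag1 within subtypes too. Pax5, the factor that fixes B-cell identity, could be compared in 4 subtypes with at least 5 cells on each side. Rag1 was detected in 7 of 8 Ly6d+Gfra2- CLP with Pax5 and 22 of 78 without, a difference of 59.3 points (23.1 to 72.8). In Ly6d+Gfra2+ CLP the shares were 85.2% of 54 cells and 60.7% of 28 cells, a difference of 24.5 points (4.82 to 44.1). In Gfra2- Bst1- FrA they were 52.9% of 17 and 10.6% of 66 cells, a difference of 42.3 points (18.3 to 63.9), and in Gfra2+ Bst1- FrA 84.9% of 73 and 50% of 10 cells, a difference of 34.9 points (6.78 to 62). Rag1 was also more frequent in the cells with Pax5 on each of the 7 plates that had at least 3 cells on both sides, by 19.9 to 51.3 points. The mean reference Ct of cells with Pax5 was later than that of cells without in 3 of the 4 subtypes and earlier in Ly6d+Gfra2+ CLP, with the widest gap, 12.63 against 12.20 cycles, in Ly6d+Gfra2- CLP. With Pax5 the Rag2 share was higher by 2.37 points on average over the 4 subtypes, with 0 intervals above 0, and the Dntt share by 1.81 points, with 1.

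Ebf1, which acts before Pax5, was compared in the 3 subtypes where it was neither rare nor universal. In Gfra2- Bst1- FrA, Rag1 was detected in 16 of 45 cells with Ebf1 and 0 of 38 without, where 3 cells of 38, the limit taken for a count of 0, would be 7.89%. In Ly6d+Gfra2- CLP it was detected in 28 of 63 cells with Ebf1 (44.4%) and 1 of 23 without (4.35%), a difference of 40.1 points (19.8 to 52.8). In Ly6d-Gfra2- CLP the shares were 13.8% and 5.17%, a difference of 8.62 points whose interval (-3.60 to 25.7) includes 0. On all 6 plates of these subtypes the cells with Ebf1 had the higher Rag1 share, by 5.04 to 45.5 points. Rag2 was detected with Ebf1 more often in Gfra2- Bst1- FrA, at 73.3% against 39.5%, a difference of 33.9 points (12.5 to 51.4); in the CLP subtypes the differences were -3.45 and -4.83 points, with intervals that include 0. The difference between subtypes was not tested. Dntt in Gfra2- Bst1- FrA was detected in 45 of 45 cells with Ebf1 and 24 of 38 without.

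Pou2af1, a B-cell coactivator, was compared in the 3 Gfra2+ subtypes. It was named for the likeness of its detection to that of Rag1 in these same cells. Its values with Rag1 thus restate that choice and are no separate support. Rag1 was detected in 94.3% of Ly6d+Gfra2+ CLP with Pou2af1 and 63.8% without, in 91.1% and 68.4% of Gfra2+ Bst1- FrA, and in 80% and 58.3% of Gfra2+ Bst1+ FrA. The first 2 of these intervals of the difference lay above 0 and that of Gfra2+ Bst1+ FrA (-6.59 to 50.1) did not; at a limit of Ct 24 for detection the mean difference was 15.7 points in place of 24.9. Foxo1, a forkhead factor, went with Rag1 by 0.27 to 27.0 points in 3 subtypes, with 1 interval above 0. Bcl2, a survival gene, ran the other way: the Rag1 share was lower in cells with Bcl2 in 5 of 6 subtypes, by 19.4 points on average over the 6, with 2 intervals below 0. Mpo, a myeloid gene, was split likewise. The Rag1 share was higher with Mpo in 2 of 6 subtypes, by 2.34 points on average over the 6. Its 1 interval above 0 was in Ly6d+Gfra2- CLP, at 22.7 points (2.59 to 39.9), where Rag2 was higher by 23.8 points (6.27 to 40.7). Igll1, a B-lineage gene, went with Rag1 by 20.4 points on average over 3 subtypes, with 1 interval above 0. Igll1 too was named for its likeness to Rag1 in these cells, so this value is no separate support. For Il2rb, a natural killer marker, the mean was -1.84 points over 4 subtypes, and 0 intervals excluded 0.

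**Figure D5:**
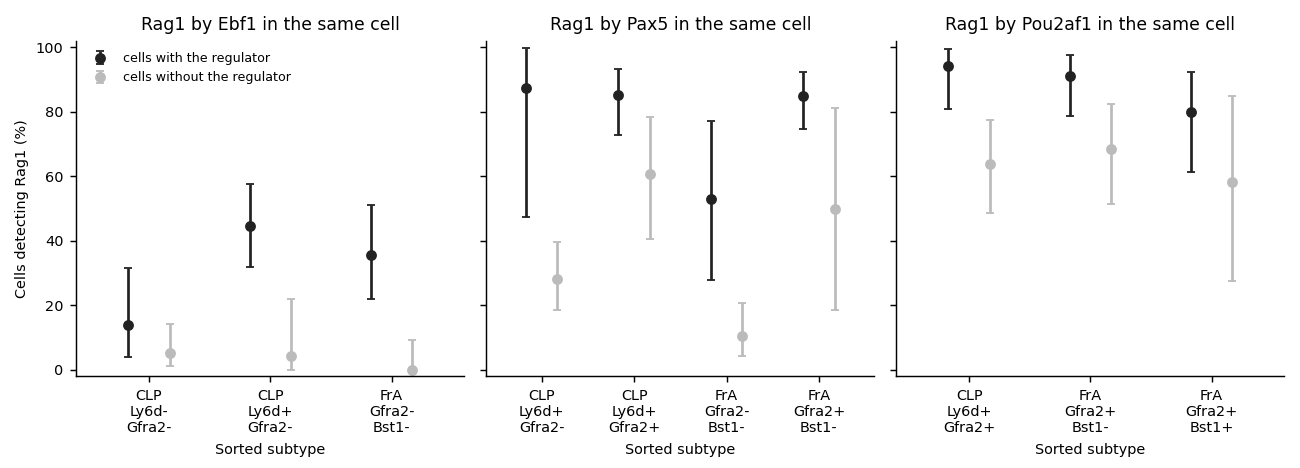
Share of single cells detecting Rag1 (y axis, percent) among cells with (black) and without (grey) Ebf1, Pax5 or Pou2af1 in the same cell, in the sorted subtypes (x axis) with at least 5 cells on each side; error bars are exact 95% intervals. The black point lies above the grey one in each pair shown, and in Gfra2- Bst1- FrA Rag1 was detected in 0 of 38 cells without Ebf1. Pou2af1 was named for its likeness to Rag1 in these same cells, so its panel restates that choice.

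The Gfra2- Bst1- FrA were mixed in a further way. Spib, an Ets factor of B cells and plasmacytoid dendritic cells and the only 1 of 4 plasmacytoid markers assayed, was detected in 52 of its 83 cells, and in 1.15% to 38.1% of the cells of the other subtypes. Rag1 was detected in 3 of 52 cells with Spib (5.77%) and 13 of 31 without (41.9%), a difference of -36.2 points (-53.9 to -17.8). Rag2 was detected in 44.2% and 80.6%, a difference of -36.4 points (-52.6 to -14.8). On plate 8 Rag1 was detected in 0 of 26 cells with Spib and 62.5% of 16 without, and on plate 2 in 11.5% of 26 and 20% of 15. Read together with Ebf1, a cross chosen after the values were seen, 33 cells held Spib without Ebf1, and of these 0 held Rag1, 12 held Rag2 and 19 held Dntt. Of 26 cells with Ebf1 and no Spib, 13 held Rag1, 22 held Rag2 and 26 held Dntt. Of the 19 cells with both factors, 3 held Rag1, 11 held Rag2 and 19 held Dntt, so that they lay between those 2 sets for Rag1 and Rag2. For Rag1, the step down from the cells with Ebf1 alone rested on plate 8. There Rag1 was in 0 of 7 cells with both and 10 of 15 with Ebf1 alone. On plate 2 it was in 3 of 12 and 3 of 11. Of the 5 cells with neither factor, 0 held Rag1, 3 held Rag2 and 5 held Dntt. The mean reference Ct was 12.52 with Spib alone, 12.82 with Ebf1 alone, 12.78 with both and 11.58 with neither, and the part of RNA input was not tested. In Ly6d+Gfra2- CLP, Rag1 was likewise less frequent in the 17 cells with Spib, at 11.8% against 39.1% of 69, a difference of -27.4 points (-41.9 to -2.41). In Gfra2+ Bst1- FrA, Rag2 was detected in 17 of 17 cells with Spib and 60 of 66 without.

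Over the 11 plates, the assays whose shares went most like that of Rag1 were Ebf1 (Pearson's r = 0.96), Pax5 (0.93), Pou2af1 (0.90) and Gfra1 (0.86), a receptor related to Gfra2. For Rag2 they were Ebf1 (0.74), Klrb1c (0.73), a receptor of natural killer cells, Rag1 (0.72) and Pou2af1 (0.69). For Dntt they were Spi1 (0.89), a factor of early progenitors and myeloid cells, Kit (0.75), Bcl2l1 (0.75) and Mpo (0.68), a granule enzyme of the myeloid lineage. The Dntt share was 85.4% and 81% on the 2 plates of Gfra2- Bst1- FrA and at least 92.9% on every other plate. The values for Dntt thus rest largely on that subtype. Plates of 1 subtype share their sort label and the 24 to 25 candidate assays of each gene share their cells. These values therefore describe 11 plates and carry no p. Within subtypes, the mean phi coefficient of detection over cells was highest with Rag1 for Pax5 (0.33), Pou2af1 (0.29) and Igll1 (0.20), the surrogate light chain, over 3 subtypes each. With Rag2 the highest were Lck (0.17), Gfra1 (0.10) and Ebf1 (0.08), all weak, and too few cells lacked Dntt for the measure to be taken.

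RNA input was set beside these shares by splitting the cells of each plate at their median reference Ct. For Rag1 the share was within 11.3 points between the sides in 5 of 6 subtypes, with intervals that include 0, and in Gfra2+ Bst1+ FrA it was 57.1% of the 21 cells with more input and 90.5% of the 21 with less. For Rag2 it was 88.4% and 69.8% in Ly6d+Gfra2- CLP and within 8.25 points in the other 5 subtypes. Between the Ct of each gene and the reference Ct, r over cells was above 0 in each subtype, but weak in several. It ran from 0.05 for Rag1 in Gfra2+ Bst1- FrA (67 cells), next to no relation, to 0.52 for Dntt in Ly6d-Gfra2- CLP (87 cells).

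Wells of 10 and of 20 cells, 1 of each on plates 1 to 10, gave a check on the assays. Dntt was detected in all 20 wells, from 12.85 to 16.65 cycles (median 14.22) in the 10-cell wells and 11.80 to 15.79 (median 13.25) in the 20-cell wells. Rag2 was detected in 9 of 10 wells of each kind, from 11.42 to 15.49 cycles (median 12.52) and 10.85 to 14.88 cycles (median 11.81). Rag1 was detected in 9 of 10 10-cell wells, from 10.79 to 15.45 cycles (median 13.31), and in 10 of 10 20-cell wells, from 10.28 to 15.50 cycles (median 13.10). The 10-cell well of Ly6d-Gfra2- CLP on plate 5 lacked both Rag1 and Rag2, and the 20-cell well of Gfra2- Bst1- FrA on plate 2 lacked Rag2. The ranges of the 2 kinds of well overlapped for each gene. Wells without a Ct are left out of the means that follow. Mean Ct was earlier in 20-cell wells by 1.24 cycles for Dntt, 0.99 for Rag2 and 0.09 for Rag1. None passed a two-sided permutation test over wells (Benjamini-Hochberg adjusted over the 3 genes, p = 0.136, 0.255 and 0.925). That test ignores that the wells are paired by plate. Leaving out each plate in turn or subtracting the spike-in Ct gave adjusted p by the same permutation test from 0.0524 to 0.290 for Dntt, 0.136 to 0.472 for Rag2 and 0.672 to 0.987 for Rag1. Taking the plate as a block pairs its 10-cell and 20-cell wells. The 20-cell well was then earlier on 10 of 10 plates for Dntt, by 1.24 ± 0.88 cycles (SD). For Rag2 it was earlier on 8 of 8, by 0.79 ± 0.53, and for Rag1 on 6 of 9, by 0.38 ± 0.67. The exact two-sided sign-flip test then gave adjusted p = 0.00586, 0.0117 and 0.137, of which the first 2 rest on the smallest unadjusted p that 10 and 8 plates allow. The Ct expected from the single cells of the same plate, undetected cells counted as 0, was earlier than that of the 10-cell wells by 0.37 ± 1.18 cycles for Rag1 (9 wells), 0.34 ± 0.76 for Rag2 (9 wells) and 0.70 ± 0.99 for Dntt (10 wells). For the 20-cell wells it was earlier by 1.01 ± 0.95, 0.47 ± 0.57 and 0.46 ± 0.82 cycles. These offsets (mean ± SD over wells) were not tested.

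The table also holds 2 wells on plate 8 whose titles mark them as controls without reverse transcriptase and whose descriptions call them cells. They entered no comparison. Both gave Ct values for Rag2 and Dntt and 1 for Rag1, in the range of the single cells of that plate or earlier, and for the reference gene Atp5a1 at 12.08 and 11.51 cycles. With labels in conflict, they give no background level for the 3 genes.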

How the data were processed

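Single cells and pools of 10 or 20 cells had been sorted into plates, reverse transcribed, pre-amplified and read with TaqMan assays on a Fluidigm BioMark chip, per the labels' protocols. The deposited table holds Ct values for 48 assays, of which 1 is a spike-in RNA, in 486 wells. For the instrument software, its thresholds and normalisation, the settings were not given in the sources used. Of 464 single cells, 463 with at least 2 of 3 reference assays detected were kept. Values of 40 (46.8% of 23328) were read as no Ct, and a gene as detected at a Ct of at most 28. Groups followed the labels. Shares carry exact (Clopper-Pearson) intervals and their differences Newcombe intervals, at 95%, for counting error only. A share was called at 20 points, a mean Ct at 1 cycle, both with plates that did not overlap. Wells of 10 and 20 cells were compared by a permutation test over wells (up to 100000 resamples) with a sign-flip test over plates as the alternative. The pairing is by plate, which the labels give: the Ct of a plate's 10-cell and 20-cell wells went together (Pearson's r = 0.94 over 9 plates for Rag1, 0.93 over 8 for Rag2 and 0.77 over 10 for Dntt). Most genes were named by rule, as the 3 genes themselves or members of a list of regulators. The rule added the 4 assays most like each of the 3 over plates and the 3 most like each within subtypes. Spib and Il2rb, from the marker lists, and Bcl2 were chosen outside that rule. Of 16 genes of V(D)J recombination and end joining, 3 are on the panel, the 3 described. The members and lists were chosen with earlier results of these data known. Alternatives changed the detection limit, the cell filter, the calling rule, the measure of Ct and the plates included. Promoter sequences came from RefSeq by symbol, where 3 of 3 genes matched. Python 3.11.15, numpy 2.4.6, pandas 2.3.3, scipy 1.17.1 and matplotlib 3.10.9 were used. The calling rule was tried on simulated cells without differences between the plates of a group. It was thus not tested against gaps between plates such as those seen in these data.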

Additional observations from a re-analysis of the deposited data

Results flagged for a closer look

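The 2 wells of plate 8 with a title that marks them as lacking reverse transcriptase gave signal for the recombination genes, in data that no comparison used. The well at position 36 had a Ct of 16.40 for Rag2 and 16.48 for Dntt and none for Rag1. The well at position 30 had a Ct of 13.46 for Rag1, 17.89 for Rag2 and 14.95 for Dntt. Single cells of that plate ran from 13.69 to 17.20 for Rag1, 15.05 to 20.56 for Rag2 and 15.02 to 27.83 for Dntt. The reference gene Hprt was read at 13.37 and 13.23 cycles in the same wells. The descriptions of both wells call them cells, and which label holds was not tested.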

How the results depend on the processing

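Of the alternatives to the member comparisons, 363 values stayed on their side of the rule, of which 346 kept their sign and 17 small differences, not called in either setting, turned theirs. Another 19 newly met the rule, 11 no longer met it and 4 that were called in 1 of the settings turned direction; the causes were not tested. At 30 points for a call, the Rag1 difference in the Ly6d step (25.7 points) and the Rag2 difference between Gfra2- FrA and CLP (-21.2) were no longer called. At 10 points, Rag2 in the CLP Gfra2 step (18.5), Dntt in the FrA Gfra2 step (14.5) and Rag1 and Dntt between Gfra2- FrA and CLP (-14.4 and -14.5) were. With detection at Ct 20, Dntt shares met the rule in the FrA Gfra2 step (34.9), the Bst1 step (-27.0), and between FrA and CLP for Gfra2+ (-28.9) and Gfra2- cells (-45.4). In cells of the middle 50% of reference Ct, the Rag2 share difference between Gfra2- FrA and CLP was -13.3 points and the Dntt level difference in the Bst1 step -0.21 cycles, both no longer called, while Dntt between Gfra2+ FrA and CLP (-1.11) was. After subtracting the reference Ct, Rag2 in the Ly6d step turned from -0.01 to 1.03 and met the rule, Dntt between Gfra2+ FrA and CLP (-1.14) met it, and Rag2 and Dntt in the FrA Gfra2 step (0.96 and 0.97) and Rag2 between Gfra2- FrA and CLP (-0.88) did not. Plate means of the spike-in Ct ran from 6.63 to 10.1 cycles, both ends on plates of Ly6d+Gfra2+ CLP. After its subtraction, Rag2 in the Bst1 step (2.46) and Dntt between Gfra2+ FrA and CLP (-2.66) met the rule. Rag1 met it with a turned direction in both, from -0.33 to 1.36 and from 0.08 to -1.67, and Dntt in the Bst1 step turned to 0.43.

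Leaving out each plate in turn gave ranges, in points, of 17.0 to 34.8 (Rag1, Ly6d step), -7.60 to 24.3 (Rag2, Ly6d step), 8.92 to 28.5 (Rag2, CLP Gfra2 step), -23.6 to -5.72 (Rag1, Gfra2- FrA against CLP) and -30.8 to -11.2 (Rag2, the same). In cycles they were -1.43 to 0.41 (Dntt, Ly6d step), 0.56 to 1.06 (Rag2, Bst1 step), -1.77 to -0.72 (Dntt, Bst1 step) and -1.47 to -0.42 (Dntt, Gfra2+ FrA against CLP). With the plate as a replicate block, the 20-cell wells were earlier by 0.79 cycles for Rag2 and 1.24 for Dntt, past the threshold, and by 0.38 for Rag1, which was not; without the block, leaving out a plate gave -0.09 to 0.38 for Rag1.

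Of 45 assays, the number called at 20 points, at 30 and at 10 was 4, 1 and 12 in the Ly6d step, 7, 4 and 16 in the CLP Gfra2 step and 3, 1 and 7 in the Bst1 step. In the FrA Gfra2 step it was 11 at 20 points and 17 at 10, between Gfra2+ FrA and CLP 3 and 9, and between Gfra2- FrA and CLP 5, with 2 at 30 points and 13 at 10. It was also 7 in the Ly6d step for the middle 50% of reference Ct, 5 in the Bst1 step at Ct 20, and, without plate 1, 11 in the CLP Gfra2 step and 5 between Gfra2+ FrA and CLP. A subtype of 42 to 87 cells limits each share, and no animal-level spread could be measured.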
